A study of Mus musculus with 2148 samples.

Results

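Thyroglobulin (Tg), the glutamate decarboxylases Gad1 and Gad2, myelin oligodendrocyte glycoprotein (Mog), myelin basic protein (Mbp), the retinoid-binding protein of the eye (Rbp3) and the stomach proton pump subunits Atp4a and Atp4b are classical targets of organ-specific autoimmunity. These 8 genes, of 48437 in the count table, were chosen by name as known autoantigens of thyroid, islet, brain, eye and stomach, and no measured value entered the choice. All 8 were found once each by symbol and Ensembl identifier.

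Medullary thymic epithelial cells (mTECs) transcribe genes that otherwise belong to peripheral organs, so that developing T cells meet those proteins before they leave the thymus. Aire, a nuclear protein of mature mTECs, raises the transcription of many such genes, and a single mTEC transcribes only part of them at a time. Loss of Aire leads to autoimmunity against several organs, and the proteins described here are among the antigens studied most often in that setting.

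RamDA-seq, which covers transcripts over their full length by priming total RNA at random sites and at poly(A) tails, was run on single cells. C57BL/6 thymus cells negative for CD45 and positive for EpCAM had been sorted as mTEChi (Ly51 negative, MHC class II high), mTEClo (Ly51 negative, MHC class II low) and cortical cells (cTEC, Ly51 positive). Adult wild-type (WT) mice gave 620 mTEChi (31.3% of all cells), 18.03% of all cells as mTEClo and 77 cTEC (3.89%). Adult mice lacking Aire (Aire-KO) gave 17.07% of all cells as mTEChi and 7.78% as mTEClo, and WT mice of 1 day gave 8.64% as mTEChi, 6.26% as mTEClo and 7.02% as cTEC. The labels do not number the mice. Cells of a group with the same age and sex labels were therefore added up to a mouse pool, and pools served as replicates.

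Adult WT mTEChi held 4 pools, namely pool 1 (4 weeks, male, 71.6% of the group's cells), pool 2 (5 weeks, male, 12 cells), pool 3 (6 weeks, male, 82 cells) and pool 4 (4 weeks, female, 82 cells). Adult WT mTEClo held 3 pools of males, of 8 weeks (pool 1, 60.8% of the group's cells), 5 weeks (pool 2, 74 cells) and 4 weeks (pool 3, 66 cells). Both Aire-KO sorts were 1 pool each of males of 5 weeks, adult cTEC were 1 pool of males of 6 weeks, and each newborn sort was 1 pool whose sex label is unknown. No plate held cells of both genotypes, so plate and genotype cannot be told apart. The newborn sorts shared 5 plates. None of these plates held adult WT mTEClo, so plate and age cannot be told apart in mTEClo. How many mice stand behind a pool is not given, so p-values measure only the spread between these pools.

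A cell had a median of 692880 deduplicated reads on genes (203010 to 1823784). Median depth by group ran from 532926.5 reads in Aire-KO mTEClo to 862537 in adult cTEC, and was 772240 in WT and 812728.5 in Aire-KO mTEChi. At least 3 of 13 thymic epithelial marker genes (Epcam, Foxn1, Krt5, Krt8 and others) reached 5 reads in every cell of 7 groups and in 99.4% of Aire-KO mTEClo, and none of the 13 was at 0 in any group. Adult WT mTEClo pool 2 stood apart, since 74 of its 74 cells carried the tuft cell marker list (at least 3 of its 9 genes at 5 or more reads), against 18.9% and 63.6% of the cells in pools 1 and 3. Plates 1 and 2 also stood apart. They held 1 plate of adult WT mTEChi pool 1 and all of adult WT mTEClo pool 3 (7.12% of all cells), and 11 genes, among them Ins1, Ins2, Il6, Cd3g and Gdf2, reached 5 reads in at least 90% of their cells and in under 10% of all other cells. None of the 8 genes was among these 11. Results that rest on these plates are also given without them, an alternative chosen after the data were seen. Levels are given as CPM, the count per 1000000 reads on genes. Shares of cells are given at 1 or more reads and at 5 or more reads, because these limits gave different pictures.

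Aire, the gene targeted in the knockout, was read at 1109.7, 1844.6, 1125.1 and 1789.7 CPM in adult WT mTEChi pools 1 to 4 and at 26.1 CPM in Aire-KO mTEChi. At 5 or more reads it was found in 98.7% of WT and 48.8% of Aire-KO mTEChi, so transcripts of the locus remained at low level in the knockout cells. The fitted log2 fold change was -5.69 (SE 0.57), yet edgeR's quasi-likelihood test over the mouse pools gave a Benjamini-Hochberg adjusted p of 0.239. DESeq2 on the same pools (adjusted p 1.72e-25) and edgeR over plates (adjusted p 3.06e-06) called Aire lower. Newborn mTEChi held 1469.3 CPM of Aire, and adult WT mTEClo 37.1, 39.5 and 26.1 CPM in pools 1 to 3.

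The 8 genes fell into very different classes in adult WT mTEChi. Mbp was read in nearly every cell, Atp4a and Gad1 in a large part of them, Tg and Atp4b in a smaller part, and Mog, Rbp3 and Gad2 in a handful of cells. As mean ± SD over the 4 pools, 5 or more reads were present in 94.99% ± 2.33 of cells for Mbp, 59.1% ± 3.53 for Atp4a, 45% ± 5.30 for Gad1, 25.1% ± 5.54 for Tg and 24.7% ± 5.53 for Atp4b. The rare genes reached 0.89% ± 1.16 (Mog), 0.45% ± 0.90 (Rbp3) and 0.36% ± 0.58 (Gad2). Tg and Atp4b did not differ beyond their spread, nor did the 3 rare genes among themselves, while the steps from Mbp to Atp4a, from Atp4a to Gad1 and from Gad1 to Tg each exceeded the SDs.

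**Figure D1:**
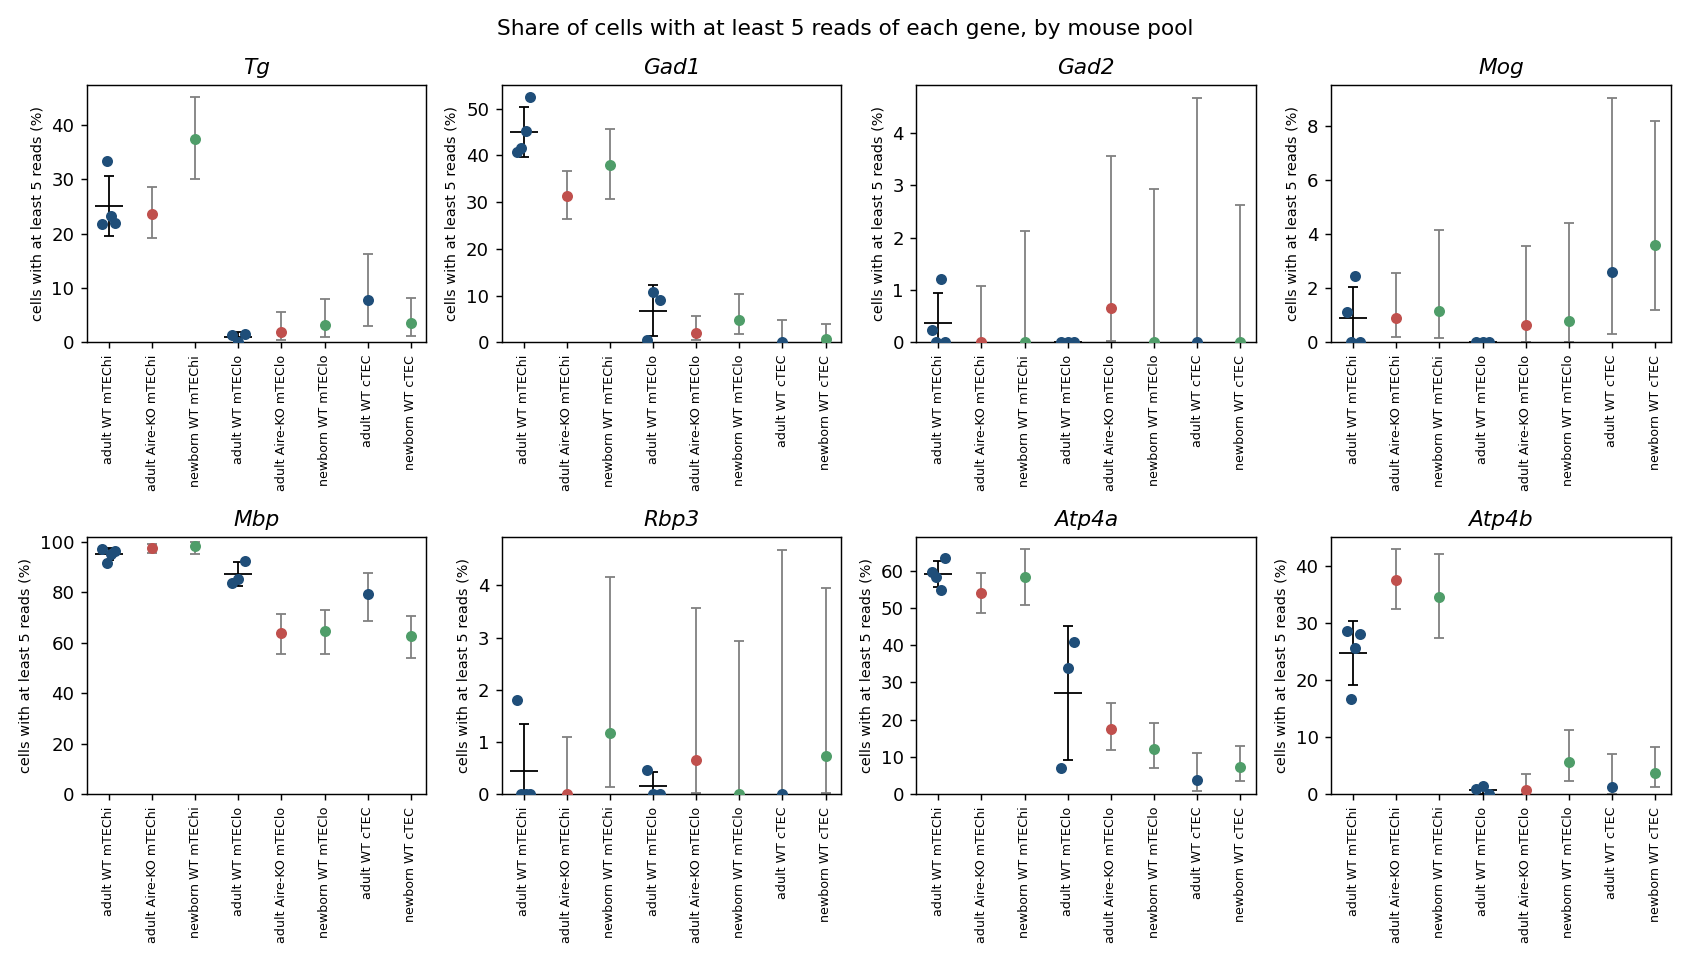
Share of cells with at least 5 reads (y axis, percent) for each of the 8 genes in the 8 groups (x axis), where each point is 1 mouse pool, black bars are the mean and SD over pools, grey bars are exact 95% binomial intervals of groups with 1 pool, and the vertical axes differ between panels. Mbp lay above 90% in every WT mTEChi pool, while Gad2, Mog and Rbp3 stayed below 10% in every pool.

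Per length, the order of summed levels in adult WT mTEChi was led by Mbp at 23.4 RPKM (CPM divided by the exon length in kb), followed by Atp4a at 18.0, Gad1 at 10.4, Atp4b at 8.99 and Tg at 5.39 RPKM. Rbp3 (0.399 RPKM), Mog (0.168 RPKM) and Gad2 (0.109 RPKM) were lower by more than 10-fold than any of these. Because cells were read 1 by 1, level and frequency could be separated: the median CPM among cells with 5 or more reads was 150 for Mbp, 92.1 for Gad1, 57.4 for Tg, 39.2 for Atp4a and 21.5 for Atp4b. Gad1 was therefore read in fewer cells than Atp4a but at a higher median CPM in the cells that held it. Unlike the RPKM values, these medians are not divided by exon length. The exon length is greater for Gad1 than for Atp4a, and it is shortest for Atp4b among these genes. The order of the medians between genes thus mixes level with length, and whether Gad1 exceeds Atp4a per length in such cells was not tested. The CPM distributions over cells were broad, with quartiles of 33.3 and 210 CPM for Gad1 and of 30.8 and 142.2 CPM for Tg.

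**Figure D2:**
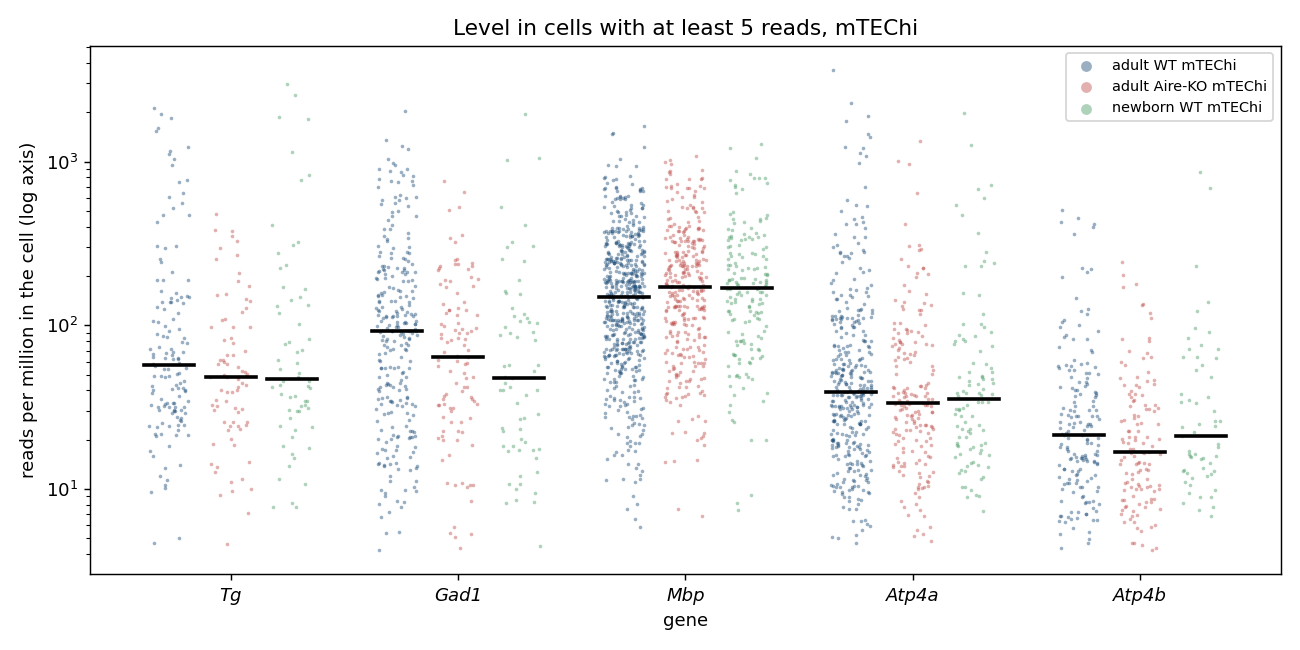
CPM on a log axis (y axis) of each cell with at least 5 reads of Tg, Gad1, Mbp, Atp4a or Atp4b, for the mTEChi groups of adult WT, adult Aire-KO and newborn WT mice (x axis, by gene), with the median as a black line. Medians of Tg were 57.4, 48.4 and 46.9 CPM in the 3 groups in that order, and the cells of each group spread over a wide range.

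Tg encodes the large protein on which the thyroid builds its hormones (ENSMUSG00000053469, chr15:66670753-66850721, + strand, GRCm38). Adult WT mTEChi pools 1 to 4 held 44.1, 234.03, 43.5 and 50.97 CPM, Aire-KO mTEChi 17.1 CPM and newborn mTEChi 97.3 CPM. Pool 2, with 12 cells, stood far above the others, and the Aire-KO pool lay below all 4 WT pools. At 5 or more reads the genotypes overlapped, with shares of 21.8%, 33.3%, 23.2% and 21.95% in the WT pools and 23.7% in Aire-KO (exact Clopper-Pearson 95% interval 19.2 to 28.6%, counting error only).

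At 1 or more reads the picture for Tg was different. The WT pools held 39.0%, 58.3%, 50.0% and 53.7% of cells with Tg against 28.7% in Aire-KO. The gap lay in cells with 1 to 4 reads, which made up 6.67 to 31.7% of cells over the 9 WT plates and 3.70 to 5.81% over the 4 Aire-KO plates. When each cell was thinned to 200000 reads, 29.03% of WT and 25.1% of Aire-KO cells kept at least 1 read of Tg. The cells with most Tg weighed heavily on the sums: the top cell of adult WT mTEChi held 8.96% of all Tg reads and the top 5 cells 34.8%.

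Outside mTEChi, Tg was scarce. Adult WT mTEClo pools 1 to 3 held 0.631, 0.0834 and 1.56 CPM, Aire-KO mTEClo 1.62 CPM and newborn mTEClo 1.72 CPM. In adult cTEC 6 of 77 cells (7.79%) reached 5 reads, at a median of only 15.1 CPM. An antisense gene, Gm17140, shares exon bases with Tg, and because counting ignored strand their reads cannot be told apart there.

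Gad1 and Gad2 encode the glutamate decarboxylases GAD67 and GAD65, which make the transmitter GABA in neurons and islets, and GAD65 is a main autoantigen of type 1 diabetes. Both genes lie on chromosome 2 (Gad1, ENSMUSG00000070880, chr2:70553072-70602014; Gad2, ENSMUSG00000026787, chr2:22622205-22693874; both + strand, GRCm38). These paralogues differed widely in level. Gad1 was read at 81.5, 56.2, 86.8 and 59.8 CPM in adult WT mTEChi pools 1 to 4, and Gad2 at 0.782, 0, 0.388 and 0.103 CPM in the same pools.

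The 250 bases before the RefSeq start of both genes (GRCm38.p6) are shown because these paralogues differ so widely in frequency, and those of Atp4a and Rbp3 because 1 is widely and 1 rarely read. RefSeq promoters were matched for 5 of the 8 genes. Capitals mark CG dinucleotides, which read the same on both strands.
Gad1: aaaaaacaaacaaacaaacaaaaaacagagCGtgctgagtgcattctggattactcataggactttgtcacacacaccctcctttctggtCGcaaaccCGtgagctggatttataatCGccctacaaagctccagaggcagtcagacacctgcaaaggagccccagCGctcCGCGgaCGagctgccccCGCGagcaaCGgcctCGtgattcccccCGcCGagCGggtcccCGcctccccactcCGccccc
Gad2: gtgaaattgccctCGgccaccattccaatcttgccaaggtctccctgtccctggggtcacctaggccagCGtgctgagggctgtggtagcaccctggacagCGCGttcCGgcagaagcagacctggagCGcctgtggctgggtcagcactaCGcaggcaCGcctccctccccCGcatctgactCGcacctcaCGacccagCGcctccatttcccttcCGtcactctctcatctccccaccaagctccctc
Atp4a: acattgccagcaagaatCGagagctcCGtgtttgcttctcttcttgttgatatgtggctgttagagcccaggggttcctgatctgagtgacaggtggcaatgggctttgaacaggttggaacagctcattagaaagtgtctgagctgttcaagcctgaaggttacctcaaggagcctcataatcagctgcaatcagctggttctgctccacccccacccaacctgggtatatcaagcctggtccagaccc
Rbp3: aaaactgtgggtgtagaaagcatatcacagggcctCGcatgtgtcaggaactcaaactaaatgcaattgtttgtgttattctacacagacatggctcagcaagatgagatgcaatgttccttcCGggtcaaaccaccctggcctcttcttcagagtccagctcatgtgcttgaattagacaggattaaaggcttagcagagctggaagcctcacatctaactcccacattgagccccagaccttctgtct
The Gad1 window (chr2:70561879-70562128, + strand) lies inside the longer gene model of the annotation used for counting and holds 17 CG, a number that 23.5% of all 32851 promoters of this length reach. The Gad2 window (chr2:22622077-22622326, + strand) runs past the start of the Gad2 model in that annotation (22622205) and holds 13 CG (reached by 31.5%). Those of Atp4a (chr7:30711959-30712208, + strand) and Rbp3 (chr14:33953753-33954002, + strand) hold 2 CG each (reached by 81.2%). The median promoter held 6. The motif TATAAA was found on either strand in the Gad1 window alone of these 4 and in 12.4% of all promoters. The fifth matched promoter, that of Mog, also holds 2 CG and is not shown.

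For Gad1, 5 or more reads were present in 40.8%, 41.7%, 45.1% and 52.4% of cells of adult WT mTEChi pools 1 to 4. Aire-KO mTEChi held 36.5 CPM and 31.4% of cells (interval 26.4 to 36.6%), so that both level and share lay below all 4 WT pools. Over plates the shares met, with 27.8 to 54.02% on the 9 WT plates and 23.3 to 42.5% on the 4 Aire-KO plates. The median CPM in cells with 5 or more reads was 92.1 in WT and 64.3 in Aire-KO. As for Tg, cells with 1 to 4 reads differed most, at 18.3 to 36.6% of cells on WT plates and 2.33 to 7.41% on Aire-KO plates, and no plate of either genotype lay within the range of the other. Thinned to 200000 reads, 55% of WT and 32.5% of Aire-KO cells kept at least 1 read of Gad1, a wider gap than for Tg. Thinning evens out depth but still counts cells with few reads, so it cannot tell genotype from plate.

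Newborn mTEChi held 53.1 CPM of Gad1 with 38.0% of cells at 5 or more reads. Adult WT mTEClo pools 1 to 3 held 0.773, 17.0 and 12.6 CPM, so pool 1 lay far below the other two. In adult WT mTEClo, 13 of the 44 cells that carried the neuroendocrine list (29.5%) had 5 or more reads of Gad1, against 2 other cells (0.639% of the others), and the part of such cells in the pool values was not tested. The same split was small in adult WT mTEChi, at 46.6% of carriers and 39.9% of others. No read of Gad1 was found in adult cTEC (0 of 77 cells, which allows a share of up to 3.90%). In newborn cTEC 15.1% of cells had 1 or more reads and 0.719% had 5 or more. Newborn cTEC shared their plates with newborn mTEChi, and 95.7% of them also had 1 or more reads of Aire, against 13.0% of adult cTEC. Where reads at this low level came from was not tested.

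Gad2 was found at 1 or more reads in 14 of 620 adult WT mTEChi, and a single cell held 85.7% of its reads. Aire-KO mTEChi held 3 reads in all, and newborn mTEChi 4 reads. Neither cTEC group had any read. Of the pair, Gad2 was thus the rare gene in every group, and the WT to Aire-KO ratio of its summed CPM, 62.8 with a counting interval of 21.3 to 305.995, rested on that cell: without the 6 WT and 3 Aire-KO cells with most reads the WT level fell from 0.643 to 0.0169 CPM.

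Mog and Mbp encode proteins of the myelin sheath, and both are used to induce experimental autoimmune encephalomyelitis. Mog (ENSMUSG00000076439, chr17:37010743-37023398, - strand, GRCm38) was read at 0.247, 0, 0.718 and 0 CPM in adult WT mTEChi pools 1 to 4 and at 0.106 CPM in Aire-KO. Pools 2 and 4 had no read, so the genotypes overlapped. In numbers of cells with 5 or more reads there were 7 WT (1.13%), 3 Aire-KO (0.888%) and 2 newborn mTEChi (1.17%). The highest share of any group was in newborn cTEC, at 5 cells (3.60%, interval 1.18 to 8.19%), and adult WT mTEClo had none, which allows up to 0.840%.

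Mbp (ENSMUSG00000041607, chr18:82475146-82585637, + strand, GRCm38) was the exception among the 8 genes, since it was read in most cells of every group. Adult WT mTEChi pools 1 to 4 held 202.1, 324.3, 178.2 and 179.9 CPM, Aire-KO mTEChi 234.42 CPM and newborn mTEChi 234.43 CPM. The Aire-KO pool lay within the WT range. Adult WT mTEClo held 72.04, 91.8 and 109.1 CPM in pools 1 to 3, Aire-KO mTEClo 57.95, newborn mTEClo 52.8, adult cTEC 57.3 and newborn cTEC 32.4 CPM. Every mTEChi pool was above every mTEClo and cTEC pool.

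The Mbp locus also makes golli transcripts, which are known from immune and other non-myelin tissues, and a count per gene cannot separate them from myelin transcripts. The marker list of Schwann cells, the myelin-forming cells of nerves, was carried by 13 of 620 adult WT mTEChi, and 96.5% of the other cells had 5 or more reads of Mbp. The summed list ran from 23.4 to 50.0 CPM over the WT mTEChi pools, with 41.2 CPM in Aire-KO mTEChi and 134.1 CPM in adult cTEC. Thymocyte markers, summed over 12 genes, ran from 61.4 to 199.5 CPM over WT mTEChi pools and stood at 63.8 CPM in Aire-KO mTEChi and at 445.96 CPM in adult cTEC. The part of such cells in the Mbp levels was not tested.

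Rbp3 (ENSMUSG00000041534, chr14:33954003-33964216, + strand, GRCm38) encodes the protein that carries retinoids between photoreceptors and pigment epithelium, and it is the antigen of experimental autoimmune uveitis. Adult WT mTEChi pools 1 to 4 held 2.86, 0, 0.0431 and 0.0206 CPM, and 5 or more reads were found in 8 cells, all of pool 1. In Aire-KO mTEChi there was no read in any cell, which allows a share of up to 0.888%. The summed level was at least 206.5-fold lower in Aire-KO than in WT, taking 3 reads over the Aire-KO group as the floor.

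That figure rested on few cells. The top cell held 50.99% of the WT reads, and without the 6 cells with most reads the WT level fell from 2.11 to 0.0911 CPM. All 4 Aire-KO plates and 2 of the 9 WT plates had no read. Rbp3 was read in 5 Aire-KO mTEClo, at 13 reads in all, so the gene was not silent without Aire in every sort.

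Atp4a and Atp4b encode the catalytic and the glycosylated subunit of the H+/K+ ATPase of gastric parietal cells, the antigen of autoimmune gastritis. They lie on different chromosomes (Atp4a, ENSMUSG00000005553, chr7:30712209-30725534, + strand; Atp4b, ENSMUSG00000031449, chr8:13386205-13396825, - strand, GRCm38). Atp4a was read at 65.5, 34.0, 62.9 and 94.9 CPM in adult WT mTEChi pools 1 to 4, at 39.3 CPM in Aire-KO and at 63.6 CPM in newborn mTEChi. The Aire-KO pool lay within the WT range, above pool 2. Shares at 5 or more reads were 59.7%, 58.3%, 54.9% and 63.4% in the WT pools and 54.1% (interval 48.7 to 59.5%) in Aire-KO.

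Atp4b was read at 15.03, 6.38, 10.8 and 7.998 CPM in WT pools 1 to 4, at 11.1 CPM in Aire-KO and at 23.9 CPM in newborn mTEChi. Its share at 5 or more reads was 28.6%, 16.7%, 25.6% and 28.05% in the WT pools and 37.6% (interval 32.4 to 42.98%) in Aire-KO. This was the 1 gene other than Mbp whose share was higher in Aire-KO than in every WT pool, while its summed level lay inside the WT range. Over plates the shares overlapped, at 11.1 to 34.7% in WT and 26.2 to 54.02% in Aire-KO.

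The subunits parted in mTEClo. Atp4a was found at 2.92, 12.9 and 21.2 CPM in adult WT mTEClo pools 1 to 3, with 6.91%, 33.8% and 40.9% of cells at 5 or more reads, whereas Atp4b held 0.276, 0.200 and 0 CPM. Atp4a reads lay mostly in cells that carried the tuft list, at 52 carriers (33.1% of them) and 15 of 200 other cells (7.50%) in adult WT, and at 20 of 58 (34.5%) and 7 of 96 (7.29%) in Aire-KO mTEClo. In newborn mTEClo the split was 5 of 49 and 10 of 75, and in adult WT mTEChi 54.7% and 61.2%. Within adult WT mTEClo, 14.6% of carriers and 5.11% of others had 5 or more reads in pool 1, 50% and 25% in pool 3, and 33.8% of the cells of pool 2, all of them carriers. How far tuft-marked cells set the pool values of Atp4a in mTEClo was not tested.

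Aire-KO was set against WT over the pools to ask which of the 8 genes differ without Aire. Aire-KO mTEChi were 1 pool, so the fit took their spread from groups with more pools. In simulated counts edgeR's test recovered 3.5% of genes raised 4-fold in Aire-KO mTEChi and 64% of those raised 16-fold. Only genes with a mean above 1 CPM were changed, and only upwards. Losses, and genes as rare as Gad2, Mog and Rbp3, were thus not covered. An absent call is therefore no sign that a gene is independent of Aire. In mTEChi, edgeR's quasi-likelihood test with Benjamini-Hochberg adjustment called 0 of the 8 genes, beside 0% of all 39971 genes tested (a call needed an adjusted p under 0.05 and at least a 2-fold change). With p unadjusted, 3.19% of these genes were lower and 1.18% higher at the 0.05 level, none of the 8 among them. Fitted log2 fold changes were -2.31 (SE 1.496) for Tg, -0.84 (SE 1.14) for Gad1, -0.60 (SE 0.87) for Atp4a, 0.26 (SE 1.21) for Atp4b and 0.21 (SE 0.35) for Mbp, beside a median of -0.16 over all genes. Gad2 (-4.80, SE 2.25) and Mog (-1.17, SE 2.35) rested on the few reads given above, and no fitted value is given for Rbp3, which had no read in Aire-KO.

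Other tools moved few of these calls. DESeq2 on the same pools called 0 of the 7 genes it could test (all but Rbp3) while it called 2.12% of 34121 genes lower, and limma on mean log2(CPM + 1) per cell called none of the 8 and 0.0275% of all genes. Without plates 1 and 2, edgeR called none of the 8 in any of the 3 knockout comparisons. With plates in place of pools, edgeR called 1 of the 8, Rbp3 (adjusted p 0.0250), beside 4.44% of 37011 genes called lower, but plates are technical units and share their mice.

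Ratios of summed CPM, WT to Aire-KO, were 2.80 for Tg (counting interval 2.71 to 2.89), 2.18 for Gad1 (2.14 to 2.23), 2.71 for Mog (1.82 to 4.14), 1.72 for Atp4a (1.68 to 1.76), 1.23 for Atp4b (1.18 to 1.28) and 0.846 for Mbp (0.838 to 0.855). These intervals cover counting error only. In an alternative chosen after the data were seen, the 6 WT and 3 Aire-KO cells with most reads of each gene were left out. Tg then fell to 1.98, Mog to 1.13, Atp4a to 1.53 and Atp4b to 0.964, while Gad1 was 2.22 and Mbp 0.823. Of the ratios above 2, that of Gad1 alone stayed above 2 in this way.

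**Figure D3:**
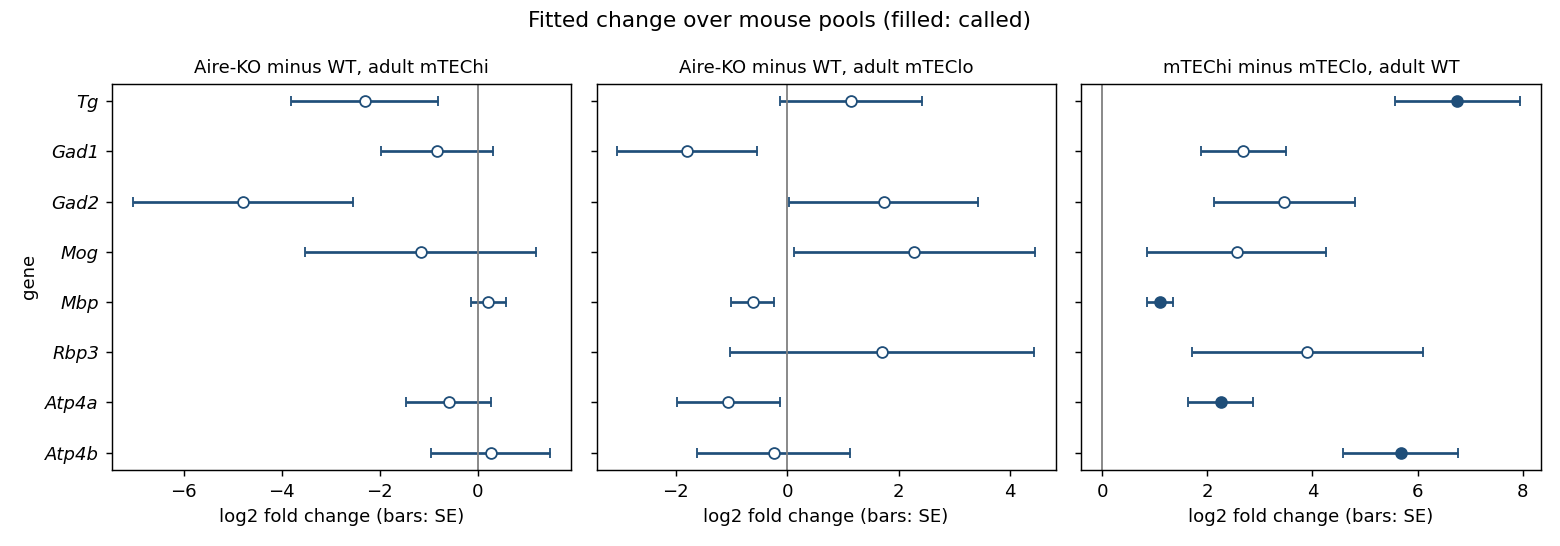
Fitted log2 fold change over mouse pools (x axis, bars are SE) for each gene (y axis) between Aire-KO and WT in mTEChi and in mTEClo and between adult WT mTEChi and mTEClo, with called genes filled. No gene was called for the knockout, where Rbp3 is not drawn in mTEChi because Aire-KO had no read, and Tg, Atp4b, Mbp and Atp4a were called higher in mTEChi.

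In mTEClo the knockout comparison also gave 0 of 8 calls, beside 0% of 39971 genes (edgeR, with p unadjusted, 1.41% were lower and 2.14% higher at 0.05). The levels were low, at 2.74 CPM of Gad1, 5.61 CPM of Atp4a and 57.95 CPM of Mbp in Aire-KO. Mbp lay below all 3 WT pools, at -0.62 (SE 0.38) on the log2 scale. The difference between the effects in the 2 sorts, an interaction term, gave 0 of 8 calls and 0% of 39971 genes (edgeR, 2.212% lower and 1.23% higher at 0.05 with p unadjusted). Gad2 had the smallest unadjusted p there (0.0443, adjusted p 1.00 by edgeR), on 3 and 8 reads in the Aire-KO sorts. DESeq2, limma and edgeR over plates called none of the 8 in either comparison, and DESeq2 could not test Rbp3.

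Adult WT mTEChi were set against adult WT mTEClo to see how these genes differ between the sorts, which also differ in the marker lists their cells carry. All 8 had a positive fitted fold change, and edgeR called 4 of the 8 higher and 0 lower, beside 7.54% of 39971 genes called higher and 4.13% called lower. On the log2 scale Tg was higher by 6.76 (SE 1.18, edgeR, adjusted p 0.0123) and Atp4b by 5.68 (SE 1.10, adjusted p 0.0164). Atp4a was higher by 2.25 (SE 0.62, adjusted p 0.0482) and Mbp by 1.10 (SE 0.25, adjusted p 0.0285), all by edgeR's test over 4 and 3 pools. For each of these every mTEChi pool lay above every mTEClo pool. Gad1 also did not overlap, at 56.2 to 86.8 CPM and 0.773 to 17.0 CPM, but its log2 difference, 2.69 with SE 0.81, missed the threshold (edgeR, adjusted p 0.0611). Gad2 (3.47, SE 1.34, adjusted p 0.111), Rbp3 (3.90, SE 2.20, adjusted p 0.235) and Mog (2.55, SE 1.70, adjusted p 0.307) did not pass either.

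The median log2 fold change of all genes in this comparison was 0.30 by edgeR and 0.58 by DESeq2, so the fold of Mbp stood least above the bulk of genes. DESeq2 called 6 of the 8 higher (those 4, Gad1 and Gad2) beside 19.3% of 37848 genes, limma 5 of 8 (those 4 and Gad1) beside 4.95% of 39971 genes, and edgeR over plates 7 of 8 (all but Mog) beside 25.8% of 37011 genes. With the age and sex labels of the pools as a block, edgeR called Tg, Gad1, Mbp and Atp4b, beside 3.81% of all genes, and Atp4a stood at 1.38 on the log2 scale (adjusted p 0.0833). Without plates 1 and 2 it called Tg, Mbp and Atp4b, beside 3.41% of 40056 genes, and Atp4a stood at 2.95 (adjusted p 0.0561). Leaving out 1 pool at a time left between 1 and 4 calls, and Tg was called each time. Atp4b was lost without mTEClo pool 2 (adjusted p 0.0626), and Mbp was lost without mTEChi pool 1, 2 or 4 or any mTEClo pool. Atp4a remained called only without mTEChi pool 2 or mTEClo pool 1. Gad1 was called without mTEClo pool 1 (adjusted p 0.00575). Over the alternatives the adjusted p ran up to 0.0298 for Tg, 0.0626 for Atp4b, 0.0953 for Mbp, 0.127 for Atp4a and 0.137 for Gad1.

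Cell cycle markers moved with the same contrast, with 4 of 6 higher in mTEChi (edgeR, beside 7.54% of all genes higher and 4.13% lower), and they moved with Tg within mTEChi. In adult WT mTEChi, 36.6% of the cells that carried the cycling list had 5 or more reads of Tg, against 18.3% of the others, and in Aire-KO mTEChi 42.3% against 18.7%. For Gad1 these shares were 45.5% and 42.2% in WT. The tuft list went the other way, with 6 of 9 genes lower in mTEChi, and the thymocyte list had 2 of 12 higher. The enterocyte and liver list had 6 of 9 higher, and it was carried by 82.6% of adult WT mTEChi and 21.6% of adult WT mTEClo. Without plates 1 and 2 it had 2 of 9 higher. Their part in the differences between the sorts was not tested.

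Newborn were set against adult WT mTEChi to ask whether these genes differ with age. Each newborn sort was 1 pool of unknown sex, so age cannot be told apart from pool or sex, nor from plate in mTEClo. The test called 0 of 8, beside 0% of 39971 genes (edgeR, 1.51% higher and 0.503% lower at 0.05 with p unadjusted), and DESeq2, limma and edgeR over plates called none of the 8. Newborn shares at 5 or more reads were 37.4% for Tg (interval 30.2 to 45.1%), above all 4 adult pools, and 34.5% for Atp4b (27.4 to 42.1%), likewise above all 4, but 38.0% for Gad1 (30.7 to 45.7%), below all 4. Log2 fold changes were 0.10 (SE 1.25) for Tg, 1.28 (SE 1.14) for Atp4b and -0.38 (SE 1.10) for Gad1. In mTEClo the test between ages called 0 of 8, beside 0% of 39971 genes (edgeR, 5.62% higher and 4.32% lower at 0.05 with p unadjusted).

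In that last comparison edgeR over plates called Atp4b higher in newborn mTEClo (adjusted p 0.0269), beside 7.08% of 37011 genes, and limma called Mbp lower (adjusted p 0.0244), beside 0.335% of 39971 genes. By pool, Atp4b held 1.10 CPM in newborn and at most 0.276 CPM in adult mTEClo, and Mbp 52.8 CPM against 72.04 CPM or more. Neither gene was called by edgeR over pools or by DESeq2.

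The number of these genes held at once was counted in each cell. With Mog, Rbp3 and Gad2 each found in few cells, counts above 4 could hardly arise. Whether the counts differ from those of independent genes was not tested. Leaving out Mbp, which was read nearly everywhere, the count of the other 7 genes with 5 or more reads in 1 cell was 0 in 20.97%, 1 in 29.4%, 2 in 28.4%, 3 in 15.97% and 4 in 5.32% of adult WT mTEChi, and no cell held more. In Aire-KO mTEChi 23.7% of cells held none and 5.33% held 4. Newborn mTEChi had 16.96% without any and a single cell with 5. About the same share of mTEClo held none in adult WT (77.03%), Aire-KO (77.3%) and newborn (76.6%) mice.

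**Figure D4:**
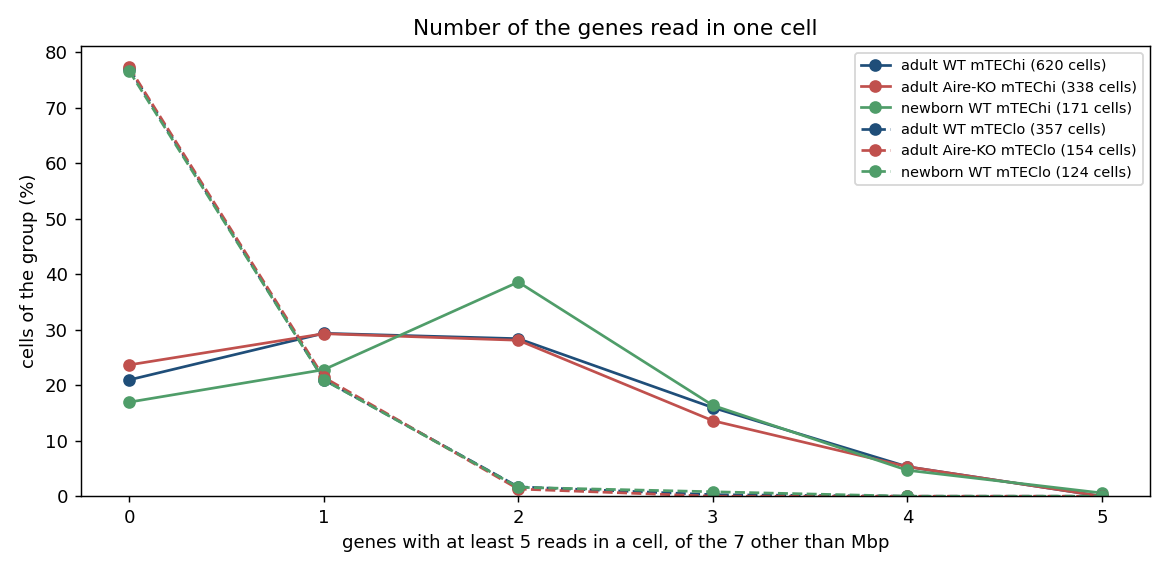
Percent of cells in each group (y axis) by the number of the 7 genes other than Mbp that had at least 5 reads in the cell (x axis), for the mTEChi (solid lines) and mTEClo (dashed lines) groups. The WT and Aire-KO mTEChi lines ran close together, from 20.97% and 23.7% at 0 genes to 5.32% and 5.33% at 4 genes.

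Some pairs of these genes met in the same cells more often than their overall shares. In adult WT mTEChi, 57.97% of Tg cells also held Gad1 (42.9% of all cells did), 71.1% of Atp4b cells held Atp4a (59.5% of all), and 38.3% of Gad1 cells held Atp4b (27.9% of all). In Aire-KO mTEChi the same shares were 45% (31.4% of all), 66.9% (54.1% of all) and 54.7% (37.6% of all). In newborn mTEChi Gad1 cells held Atp4b no more often than others, at 33.8% (34.5% of all). These are descriptions over cells that share mice, plates and sequencing depth.

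In mTEChi, cells that held the 4 genes of middling frequency had more Aire. In adult WT mTEChi, the median Aire level was 1642.95 CPM in cells with 5 or more reads of Tg and 681.9 CPM in cells with none. For Gad1 it was 1594.05 and 567.1 CPM, for Atp4b 1666.3 and 640.9 CPM, and for Atp4a 1491.7 and 360.7 CPM. Positive cells also had more genes detected, for Atp4a a median of 13590 against 12853. In newborn mTEChi the medians for Tg were 1967.6 and 741.02 CPM, but those for Gad1 lay closer, at 1704.3 and 1382.1 CPM. In Aire-KO mTEChi, where the remaining transcript of the targeted locus was low, the order was the same, at 16.8 and 1.75 CPM for Tg and 18.4 and 0.644 CPM for Atp4b. In mTEClo the order was mixed. Adult WT mTEClo held 47.6 and 11.1 CPM of Aire for Gad1 but 7.89 and 10.5 CPM for Atp4a. Newborn mTEClo held 415.9 and 8.12 CPM for Gad1, but 6.92 and 8.65 CPM for Atp4a and 6.27 and 8.51 CPM for Atp4b.

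Some genes beside the 8 genes on the chromosome were read more often in cells that held them. Genes most alike by correlation that are not neighbours split as well in adult WT mTEChi. Crhbp was read in 73.9% of Tg cells and 43.2% of others, and Nptx2 in 86.5% of Gad1 cells and 56.5% of others. Whether neighbours differ from other genes in this was not tested. Grk1, the rhodopsin kinase gene 8.256 kb from Atp4b, had 5 or more reads in 45.1% of Atp4b cells and 8.72% of the other cells of adult WT mTEChi, in 63.8% and 16.6% in Aire-KO, and in 69.5% and 12.5% in newborn mTEChi. Over all cells Grk1 was also the gene most alike Atp4b among 18151 genes (Pearson r of log2(CPM + 1) 0.58, and 0.57 without the cell with most Atp4b). The association was thus seen with and without Aire.

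Sla, an adaptor protein gene that lies within the Tg locus on the opposite strand without sharing exon bases, was the gene most alike Tg (r 0.41 over all cells). Counting ignored strand, so reads of unspliced Tg RNA over Sla exons would count as Sla. Their part in the values of Sla was not tested. It had 5 or more reads in 31.9% of Tg cells and 9.34% of others in adult WT mTEChi, and in 37.5% and 6.98% in Aire-KO. Ccn4, 40.599 kb from Tg, was read in 26.1% and 7.26% of these WT cells. Phf20l1 on the other side was read in nearly all cells (99.3% and 97.9%).

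Around the remaining genes the pattern varied. Erich2 was read in 10.2% of Gad1 cells and 0.847% of other adult WT mTEChi, and 2200002J24Rik in 34.7% of Atp4a cells and 11.2% of others. Zfp57, which ends 0.108 kb from Mog and encodes a guardian of imprinted loci, was read in 4 of 7 Mog cells and 4.405% of others, and was also most alike Mog (r 0.31). Zfp488, 2.854 kb from Rbp3, was read in 3 of 8 Rbp3 cells and 1.14% of others. Gdf2, on the other side of Rbp3, was read in 4 of 8 Rbp3 cells and 13.1% of the other WT cells, but it is 1 of the 11 genes found all over plates 1 and 2, and on the other plates 2.02% of adult WT mTEChi held it. Myo3a, 3.953 kb from Gad2, was read in 1 of the 2 Gad2 cells and 0.324% of others, while Galr1 beside Mbp reached 5 reads in 8 cells. Gm26558 beside Gad1 split little (3.76% and 1.98%), and Apbb1ip beside Gad2 was read in 0 of the 2 Gad2 cells and 21.5% of others. Gabbr1 beside Mog was read in 7 of 7 Mog cells and 43.7% of others. Zfp236 beside Mbp, Tmem147 beside Atp4a and Tfdp1 beside Atp4b were read in 95.8%, 94.7% and 96.5% of all adult WT mTEChi.

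**Figure D5:**
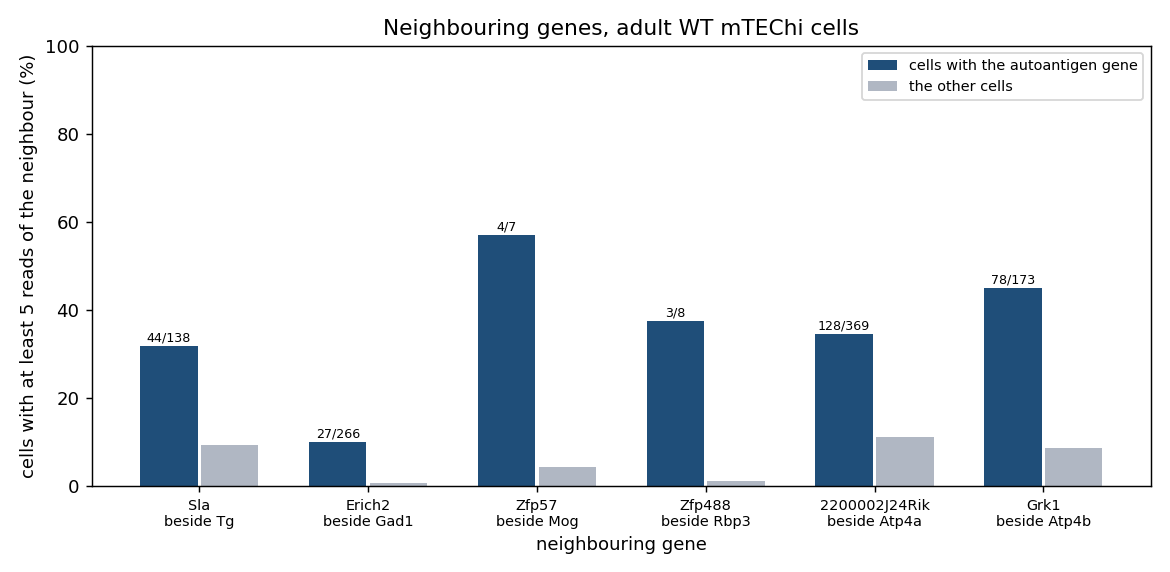
Percent of adult WT mTEChi cells with at least 5 reads of a neighbouring gene (y axis), among cells with at least 5 reads of the autoantigen gene and among all other cells (x axis, by neighbour), with cell counts above the bars of the former. Grk1 was read in 45.1% of Atp4b cells and in 8.72% of the others.

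Beyond neighbours, the genes most alike by correlation over all cells were mostly not of the same organ. Dnmt3l, a cofactor of germline DNA methylation, was among the 3 most alike for Tg (r 0.40, like Crhbp), Gad1 (0.52) and Atp4b (0.49). Gad1 was also close to Nptx2 (0.52) and Sirt1 (0.50), Atp4b to the cytokine gene Il13 (0.49), and Atp4a to Pip5k1b (0.54), Grin2c (0.53) and the intestinal factor Cdx1 (0.50). Mbp was closest to the genes Ptk2b (0.58), Cyba (0.57) and Grap (0.56), all well known from blood cells. For Gad2 the values depended on 1 cell, with Hapln1 at 0.25 with it and 0.16 without it. Such correlations over cells mix groups, depth and plates and are given without a test.

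Genes of the same organ were not the closest companions. Tg correlated best among 14 thyroid hormone genes with Tshr (r 0.24), Atp4a and Atp4b among 20 gastric genes with Kcnq1 (0.19) and Cblif (0.17), and Gad1 among islet and GABA genes with the sulfonylurea receptor Abcc8 (0.42). The medians of these correlations were 0.04 for Tg, 0.09 for Atp4a, 0.08 for Atp4b and 0.11 for Gad1. Mbp reached 0.35 with Cnp, a further myelin enzyme gene, and Mog 0.045 with Cldn11.

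The other genes of each organ were read as lists, chosen with earlier results of these data known. In adult WT mTEChi against mTEClo edgeR called 3 of 14 thyroid hormone genes higher (Tshr 5.24, Slc26a4 2.71 and Dio1 1.17 as log2 fold changes), 3 of 14 myelin genes (Olig2 7.73, Mal 3.41 and Cnp 1.73) and 5 of 20 retina genes (among them Lrat 8.22, Prph2 7.17, Abca4 6.06 and Grk1 5.95), with none lower in these lists, beside 7.54% of all genes called higher and 4.13% lower. Of 20 gastric genes 6 were higher (among them Gkn2 8.35, Gkn1 7.77, Pgc 7.42 and Cblif 6.61) and 1 lower (Clic6 -3.33). Of 21 islet and GABA genes 3 were higher (Slc32a1 6.13, Sst 5.11 and Gcg 3.21) and 1 lower (Ptprn2 -2.60). Of 28 further autoantigens 8 were higher (among them Cyp21a1 5.98, Nlrp5 5.83, Cyp17a1 5.60 and Hdc 3.90). Without plates 1 and 2, edgeR called 2 of the gastric and none of the islet and GABA genes higher.

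Per length the 2 leading genes of each of these 6 lists were read in adult WT mTEChi, as means over pools. The RPKM values of the 8 genes given above are summed levels, so close values cannot be ranked between the 2 measures. Hdc (150.5 RPKM), Dio1 (102.4 RPKM), Cnp (87.9 RPKM) and Kcnj15 (71.4 RPKM) were all above every one of the 8 genes. Dsg1a (41.8 RPKM), Pgc (40.3 RPKM) and Iapp (28.6 RPKM) were above Mbp as well. Abcc8 (25.3 RPKM) lay close to Mbp and is not ranked against it. Mal (14.6 RPKM), Lrat (14.1 RPKM), Rcvrn (8.62 RPKM) and Slc26a4 (6.29 RPKM) were the others, below Mbp.

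In the knockout the pump genes lay above the median of their list. For Aire-KO against WT mTEChi edgeR called no gene of any list, but 19 of 20 gastric genes had a negative fold change, with a median of -2.79, and 18 of 21 islet and GABA genes, with a median of -3.19, beside -0.16 over all genes. These medians were the same with the 2 genes of each list that had no Aire-KO read set at their bound. A median of this many genes could hardly move in that way, so this is no sign of robustness. DESeq2 called 5 gastric and 4 islet and GABA genes lower, beside 2.12% of all genes, and edgeR over plates 8 and 4, beside 4.44%. Without plates 1 and 2 the medians were -2.59 for gastric genes and -1.79 for islet and GABA genes, beside -0.05 over all genes. Marker lists were also read in these cells. The secretory and goblet list summed to 118.4 to 415.99 CPM over the WT pools and to 14.1 CPM in Aire-KO, with carriers at 5.65% in WT and 0.296% in Aire-KO mTEChi. Carriers of the enterocyte and liver list were 82.6% and 60.4%, of the microfold list 56.9% and 34.02%, of the tuft list 25.97% and 15.1%, and of the neuroendocrine list 45% and 57.4%. Their part in the list medians was not tested. Over all plates, Atp4a at -0.60 and Atp4b at 0.26 lay above the gastric median, and Gad1 at -0.84 above that of islet and GABA. Medians were -0.95 for myelin, -0.95 for retina, -0.23 for thyroid hormone genes and -0.89 for the further autoantigens. By the fits given above, Mbp also lay above the median of its list. Tg, Gad2 and Mog lay below theirs, Gad2 and Mog on few reads, so the genes fell on both sides. Gkn1 and Gkn2, stomach secretory genes, held 6.96 and 4.90 CPM as the mean of WT pools and no read in Aire-KO, whereas Grk1 held 17.6 and 35.6 CPM and Lrat 75.4 and 102.6 CPM.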

How the data were processed

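RamDA-seq libraries of 1980 thymic epithelial cells (2148 sequencing samples, 168 cells with 2 runs that were summed) were analysed from the deposited table of raw read counts over 48437 genes. Per the labels and methods, the authors trimmed reads with fastp 0.20.0, aligned them to GRCm38 with STAR 2.7.3a, removed duplicates with Picard 2.21.1 after SAMtools 1.9, counted reads per gene without strand with HTSeq 0.11.2 (Ensembl annotation) and deposited the counts of cells that passed their depth filter. A normalised table (GeTMM) was not used. Cells numbered 620 mTEChi, 357 mTEClo and 77 cTEC (adult WT), 338 mTEChi and 154 mTEClo (Aire-KO) and 171 mTEChi, 124 mTEClo and 139 cTEC (newborn). The same cells underlie every value here. Counting error is given as exact 95% intervals, which treat deduplicated reads or cells as independent.

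Counts were summed over the 11 mTEC pools of 6 groups (13 pools of 8 groups with cTEC) and tested with edgeR 4.0.16 (R 4.3.3, TMM, filterByExpr, quasi-likelihood, 5 residual degrees of freedom), with Benjamini-Hochberg adjustment over 39971 genes, and called at 2-fold or more with an adjusted p under 0.05. Alternatives used DESeq2 1.42.0, RLE scaling, no filter, plates as units, limma 3.58.1 on mean log2(CPM + 1) per cell, an age and sex block, leaving out each pool and leaving out plates 1 and 2. Tests were tried on simulated counts. Cells, figures and correlations were handled in Python 3.11.15 (numpy 2.4.6, pandas 2.3.3, scipy 1.17.1, matplotlib 3.10.9).

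Cells carried a marker list with at least 3 of its genes at 5 or more reads. Named were the 8 genes, Aire, the called genes of each organ list (at most 4 by fold), the 2 highest of each list per length, the 3 protein-coding genes with the highest Pearson r over cells (5 or more reads in at least 10 cells) and the nearest protein-coding neighbours. The genes and lists were chosen with earlier results of these data known.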

Additional observations from a re-analysis of the deposited data

Results flagged for a closer look

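In 24 sets of 4 adult WT mTEChi pools (levels and shares of the 8 genes), 5 had a highest pool far from the nearest of the others by Dixon's test, which flags about 1 set in 20 by chance. Pool 2, which held only 12 cells, was the far pool for Tg at 234.03 CPM and for Tg at 33.3% of cells with 5 or more reads, and for Mbp at 324.3 CPM. Pool 1, the largest, was the far pool for Rbp3 at 2.86 CPM and at 1.80% of cells with 5 or more reads. The other pools held at most 50.97 CPM of Tg, 202.1 CPM of Mbp and 0.0431 CPM of Rbp3. The cause of these gaps was not tested.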

How the results depend on the processing

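Over the alternatives run on all pools, most log2 fold changes of the 8 genes kept their direction and their side of the threshold, 10 passed it, 2 lost it and 15 turned; leaving out 1 pool, 310 kept both, 1 passed, 12 lost it and 13 turned. The number of the 8 genes called differed by over 1.5 times from that of edgeR over pools in these cases: with plates as units it was 1 for Aire-KO against WT mTEChi, 7 for adult WT mTEChi against mTEClo and 1 for newborn against adult mTEClo, and with limma it was 1 for newborn against adult mTEClo. For adult WT mTEChi against mTEClo, where edgeR over pools called 4, DESeq2 called 6, limma 5, the age and sex block 4 and the fit without plates 1 and 2 called 3, and leaving out 1 pool at a time gave 1 to 4. None of the log2 fold changes that turned was called, and the cause was not tested. For Atp4a between newborn and adult mTEChi they were -0.0058 by DESeq2, -0.0065 with RLE scaling, -0.0032 without a filter and -0.071 by limma. Without plates 1 and 2, chosen after the data were seen, Atp4a was -0.059 for the difference of the Aire effects and -0.038 between ages in mTEChi. Over plates Atp4a was -0.050 for the difference of the Aire effects and Atp4b -0.062 for Aire-KO mTEChi. By limma, Gad1 was -0.67 for that difference and -0.43 between ages in mTEClo, Mog 0.0030 for Aire-KO mTEChi and 0.063 between ages in mTEChi, Rbp3 0.0090 and 0.00078 between ages in mTEChi and mTEClo, and Tg -0.021 for Aire-KO mTEClo. With 1 pool left out the values between newborn and adult mTEChi ran from -0.23 to 0.28 for Atp4a, -0.58 to 1.07 for Mog, -2.03 to 3.12 for Rbp3 and -0.15 to 1.07 for Tg. Those between newborn and adult mTEClo ran from -2.33 to 3.69 for Rbp3. For Aire-KO they ran from -0.79 to 0.54 for Atp4b in mTEClo and -1.58 to 0.20 for Mog in mTEChi, for the difference of the Aire effects from -0.16 to 0.91 for Atp4a and -0.28 to 1.05 for Atp4b, and for adult WT mTEChi against mTEClo from -0.77 to 9.38 for Rbp3. No paired analysis was possible because the replicate numbers in the labels name single cells and not mice, and the age and sex block pairs pools by shared labels only.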
